A study of Homo sapiens with 9 samples.

Results

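The OAS family comprises the interferon-induced oligoadenylate synthetases OAS1, OAS2 and OAS3 and their relative OASL. These 4 genes were taken by symbol from a count table of 26485 genes, and the 1 OAS region among 2541 regions downstream of genes (OAS3's) was added. The libraries were made from poly(A)-selected RNA of HEK293, a human embryonic kidney cell line, in medium with fetal bovine serum. Wild-type cells (WT), cells in which UBE3D had been knocked out by CRISPR/Cas9 (KO) and cells labelled UBE3D addback gave 3 libraries each. UBE3D encodes an E3 ubiquitin ligase, and the series asks how its loss changes gene expression and transcription past gene ends. The labels call the samples pooled, do not say whether a group is 1 clone or how the addback was expressed, and do not state that the 3 libraries of each kind are separate cultures, and p-values may therefore measure technical spread only.

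OAS1, OAS2 and OAS3 bind double-stranded RNA, as made by many viruses, and then join ATP into short chains with 2′-5′ bonds, called 2-5A, a second messenger of the antiviral response. OASL has lost the synthetase activity and carries ubiquitin-like domains instead. All are known as interferon-stimulated genes, whose promoters are bound by ISGF3, a complex that includes STAT2 and IRF9, at an element with GAAA repeats.

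OAS1, OAS3 and OAS2 lie in this order on the plus strand of chromosome 12 (hg38). OAS1 spans 112906934-112919907, OAS3 spans 112938433-112973249 and OAS2 spans 112978469-113011723. OASL lies 8008568 bases further on, at 121020292-121039242 on the minus strand. GENCODE places an antisense gene, AC004551.1, across the cluster on the minus strand (112907628-113017751); it is not among the counted genes. Whether the counting used strand is not given in the sources used here, so its reads and those of the OAS genes may not have been told apart.

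The RefSeq promoter table (GRCh38.p14, 250 bases before to 50 after a start) held 2 of the 4 members, OAS1 and OAS3, and their GAAA stretches are shown because such elements are the known entry point of interferon signalling to these genes. Capitals mark the matched letters, and all 3 stretches are 5′ to 3′ on the plus strand of chromosome 12. The start meant here is the RefSeq start of these promoters, which lies downstream of the counted gene starts above. The OAS1 stretch and the OAS3 stretch nearest the start therefore fall inside the counted spans.
OAS1, chr12:112906935-112906961, the 27 bases before the start: cccttctgagGAAACGAAAccaacagc
OAS3, chr12:112938252-112938351, from 222 to 123 bases before the start: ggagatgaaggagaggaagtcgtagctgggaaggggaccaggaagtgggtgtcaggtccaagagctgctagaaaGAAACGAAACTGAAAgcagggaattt
OAS3, chr12:112938444-112938473, the 30 bases before the start: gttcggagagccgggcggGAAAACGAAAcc
The core of the interferon-stimulated response element (GAAA, any 2 bases, GAAA), searched on both strands, occurred in OAS3 at 143 and 12 bases before the start and not in the OAS1 window; 3.57% of 35116 promoters of 300 bases held it. The longer form with CT after the second GAAA, which contains the core, was in neither window and in 0.273% of promoters. The core search fixes the gap at 2 bases, so its lack of a match does not show that OAS1 lacks such an element. GAAACGAAA, with a shorter gap between its GAAA repeats, was chosen after these sequences were seen. It lay 17 bases before the OAS1 start and 148 before the OAS3 start, there overlapping a match of the core, and was in 0.162% of promoters. These matches describe letters and are not measured binding sites.

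Library totals ran from 23088295 to 37508780 counts. UBE3D, in counts scaled to library size as CPM, was at 19.5 to 26.6 in WT, 13.2 to 15.8 in KO and 2750 to 3350 in addback; gene counts do not show the edited site. WT and addback libraries held background reads over genes that kidney-derived cells should not express, estimated at 3.08% to 15.05% of the counts in WT and 2.87% to 12.01% in addback, against 0.0% in KO. CPM here were scaled on 7718 genes in which this background was at most 10% of the mean level over all 9 libraries. It can still be large in WT, as for OAS1 and OAS2 (84.0% and 113% of their WT counts), which are among these genes. Below, "background" is the count expected for a gene from its coding length. All 8 HEK293 markers had counts in every library (summed 2210 to 2930 CPM). The 10 blood and immune markers had a summed level of 13.3 to 15.5 CPM in KO, with MS4A1 at 0 in 2 libraries, 25.7 to 103 in WT and 50.1 to 106 in addback; above background the sums were 13.0 to 40 in WT and 38.2 to 54.8 in addback. The 3 endothelial markers reached 10.5 to 58.2 CPM in WT, 14.0 to 56.0 in addback and 0.984 to 1.57 in KO, and the 4 fibroblast markers 48.8 to 94.0, 64.1 to 95.4 and 45.7 to 54.3. Above background, the endothelial sums were -21.0 to 26.0 in WT and 3.44 to 10.1 in addback. Those of the fibroblast markers were 39.1 to 49.6 in WT and 55.0 to 55.9 in addback. The part of these markers in the results below was not tested.

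All 4 OAS genes were highest in addback, in every library. OAS3, OAS1, OAS2 and OASL stood 20.7-, 19.6-, 26.1- and 9.83-fold above WT in summed rates. In KO, OAS1, OAS2 and OASL were nearly silent and OAS3 was present at a low level. In bulk RNA, fewer cells carrying a transcript and less of it per cell cannot be told apart. The members were chosen with these differences in view, so their folds are given as a description without a test. The addback libraries did not overlap with KO in 4 of 4 members (60.6% of 21994 genes tested were higher without overlap) or with WT in 4 of 4 (10.4%), and KO lay below WT without overlap in 3 of 4 (58.5%).

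OAS1, the smallest synthetase, had 0, 2 and 3 counts in the KO libraries, 55, 185 and 168 in WT and 2543, 2051 and 3584 in addback. No library of a group overlapped with another group; a count of 0 still allows up to 3 counts. Its level was 92.7 ± 27.6 scaled CPM in addback, 4.92 ± 2.88 in WT and 0.0502 ± 0.0435 in KO (SD, n = 3). The log2 fold (± standard error) was 10.65 ± 0.73 for addback against KO and 4.26 ± 0.44 for addback against WT. With 5 KO counts in all, the summed rates differed 1720-fold between addback and KO, with a 95% counting interval of 736 to 5300.

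OAS2, which acts as a membrane-associated dimer, had 1, 5 and 6 counts in KO, 55, 156 and 205 in WT and 3447, 2474 and 5189 in addback. The groups were apart here too, with the widest spread of the family within addback relative to the mean (a coefficient of variation of 39.8% after background was removed, against 26.0% to 31.3% for the others). Levels were 126 ± 48.0 CPM in addback, 5.2 ± 3.74 in WT and 0.125 ± 0.0773 in KO (SD, n = 3). OAS2 was 973-fold (557 to 1880) higher in addback than in KO by summed rates, a log2 fold of 9.89 ± 0.76, and its log2 fold against WT was 4.65 ± 0.49.

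OAS3, the largest synthetase, had 550, 535 and 795 counts in KO, 594, 1131 and 689 in WT and 16872, 13060 and 21119 in addback. It had at least 535 counts in each of the 9 libraries, and KO and WT overlapped in scaled CPM. Levels were 579 ± 148 CPM in addback, 27.9 ± 6.91 in WT and 20.2 ± 0.569 in KO (SD, n = 3). The log2 fold was 4.84 ± 0.24 for addback against KO, a 28.5-fold difference (27.3 to 29.9) by summed rates. Against WT the log2 fold was 4.38 ± 0.23. KO against WT gave -0.47 ± 0.23 on the log2 scale.

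OASL, known to strengthen signalling by the RNA sensor RIG-I, had 6, 3 and 6 counts in KO, 32, 159 and 140 in WT and 999, 873 and 1457 in addback. It was the lowest of the 4 in addback at 37.7 ± 10.7 CPM, against 3.99 ± 2.67 in WT and 0.162 ± 0.0567 in KO (SD, n = 3). Its log2 fold was 7.83 ± 0.73 for addback against KO, or 233-fold (141 to 417), and 3.25 ± 0.54 against WT.

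**Figure D1:**
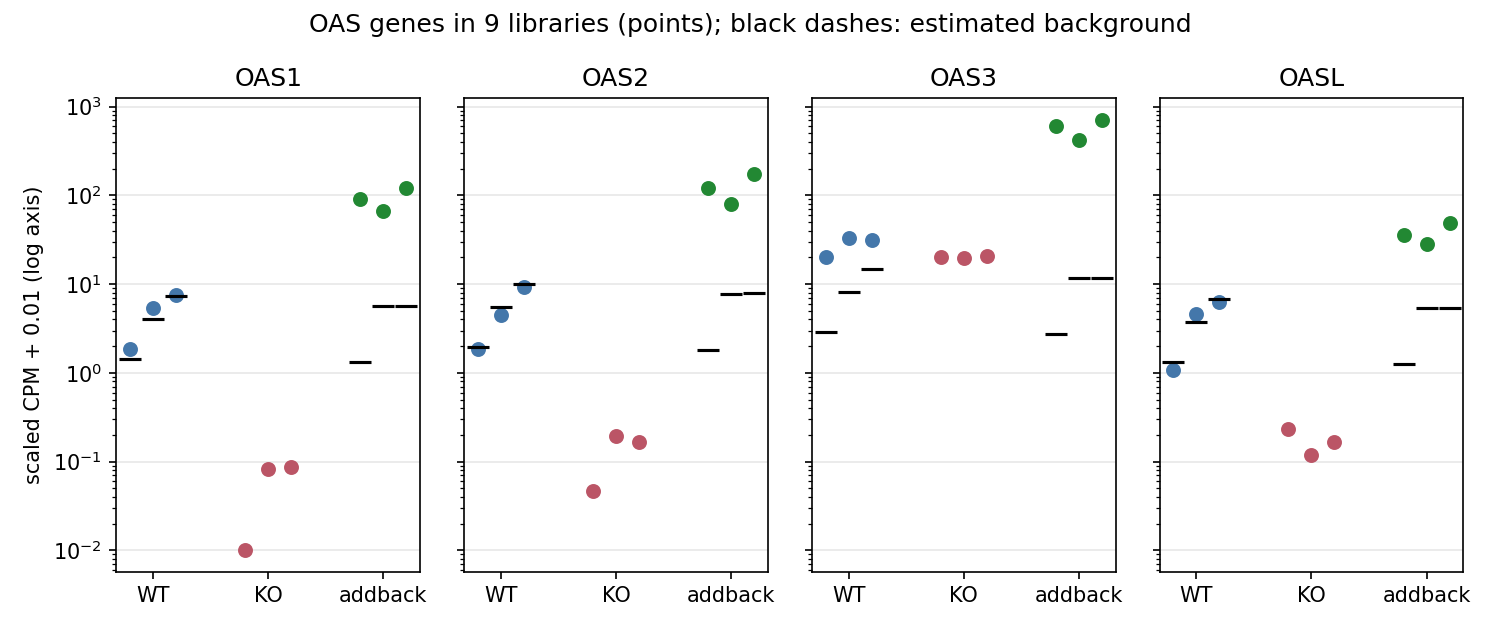
Scaled CPM plus 0.01 (log axis) of the 4 OAS genes in each library of WT, KO and addback; a point is 1 library, in the order of the replicate numbers, and the black dash is its estimated background, which is 0 and not drawn in KO. All OAS points of addback lie above those of WT and KO, and the WT points of OAS1, OAS2 and OASL lie near the dashes.

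Background reads bore on the WT values of 3 members. The expected background was 84.0% of the summed WT counts of OAS1, 113% of those of OAS2 and 97.0% of those of OASL, but 29% of those of OAS3. In each WT library, the count over expected background of OAS1 (1.31, 1.33 and 1.04), OAS2 (0.956, 0.816 and 0.925) and OASL (0.815, 1.22 and 0.925) lay within the quartiles of 559 genes restricted to other tissues. OAS3 (6.93, 3.97 and 2.09) lay above the 90th percentile of those genes. With background taken off, WT levels were 0.682 ± 0.556 CPM for OAS1, -0.618 ± 0.48 for OAS2, 0.0213 ± 0.706 for OASL and 19.2 ± 4.53 for OAS3 (SD, n = 3). OAS3 in WT and KO (20.2 ± 0.569) then differed by less than the spread of the WT libraries. Transcripts of OAS1, OAS2 and OASL were therefore not detectable above background in WT at this depth, and their folds of KO against WT (log2 -6.39 ± 0.86, -5.24 ± 0.93 and -4.58 ± 0.69) and of addback against WT hold background in the WT term. In addback the background was 4.67%, 4.71%, 1.53% and 10.7% of the counts of OAS1, OAS2, OAS3 and OASL. Same-numbered addback and WT libraries, which deviated together, gave addback-to-WT ratios of 48.8, 12.4 and 16.0 for OAS1 and of 30.0, 12.9 and 23.1 for OAS3.

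**Figure D2:**
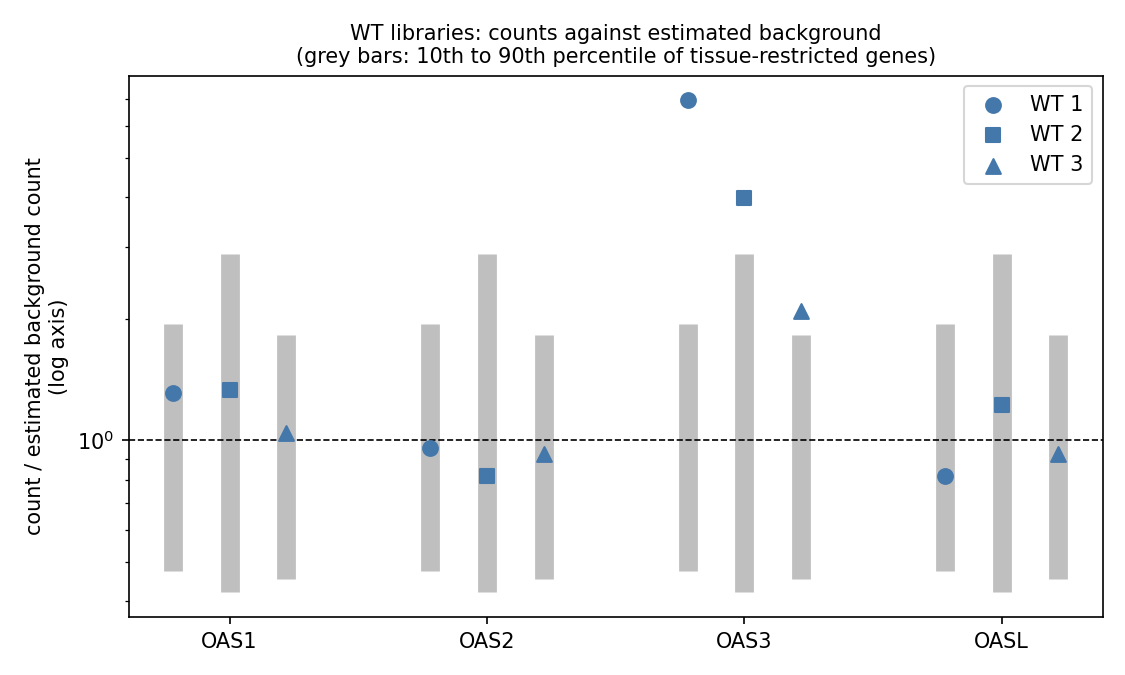
Count over expected background count (log axis) of the 4 members in the 3 WT libraries, with grey bars from the 10th to the 90th percentile of the same ratio over tissue-restricted genes and a dashed line at 1. OAS1, OAS2 and OASL sit inside the bars in all 3 libraries, whereas OAS3 sits above them.

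Per kilobase of exon and above background, OAS3 led in addback at 86.0 CPM per kb (libraries 89.9, 61.9 and 106), followed by OAS1 at 44.5 (44.8, 30.5 and 58.2), OAS2 at 19.5 (19.6, 11.7 and 27.2) and OASL at 16.2 (16.4, 11 and 21.1). The ranges of OAS3 and OAS1 did not overlap, nor did those of OAS1 and OAS2, while OAS2 and OASL overlapped. This order and the shares below depend on the length used. Counted exons of OAS2 hold 6169 bases against 2258 of coding sequence, and those of OAS1 1989 against 1646. Levels per kb of coding sequence were not computed, so OAS1 above OAS2 holds per kb of counted exon only. Of the summed level per kb, OAS3 made up 52.7%, 53.8% and 49.9% in addback 1, 2 and 3, OAS1 26.2% to 27.4%, OAS2 10.2% to 12.8% and OASL 9.55% to 9.93%. The composition thus moved little while the sum moved more. In KO, OAS3 stood at 3.04 ± 0.0857 CPM per kb (SD, n = 3); the other 3 members lay between 0.0202 and 0.0778 on average, on 5 to 15 counts in all, too few to order.

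**Figure D3:**
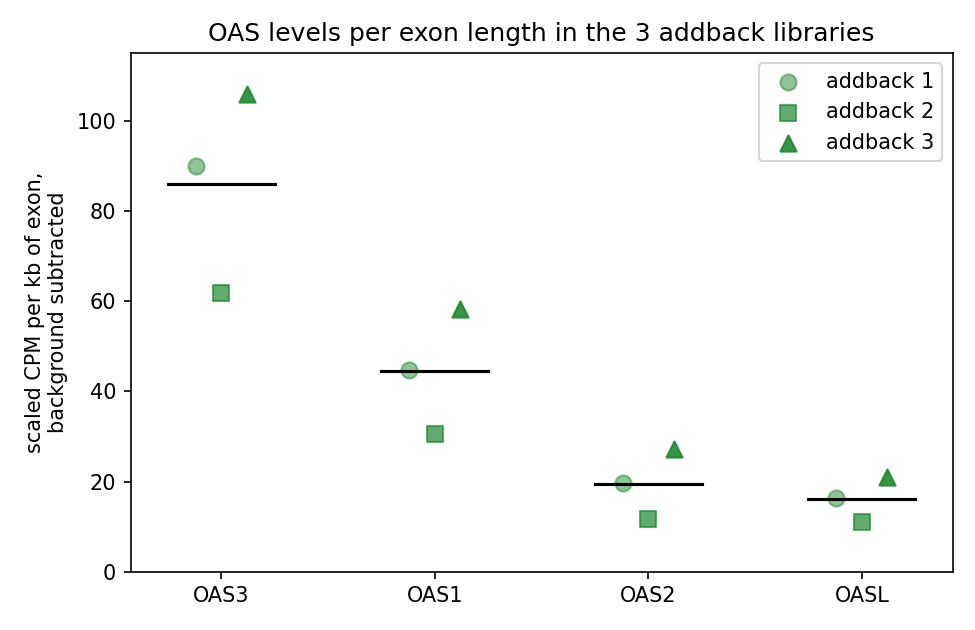
Scaled CPM per kb of exon after background subtraction (linear axis from 0) for the 4 members in the 3 addback libraries; black lines are means. OAS3 is above OAS1 and OAS1 above OAS2 in all pairs of libraries, and every member is lowest in addback 2 and highest in addback 3.

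The addback libraries differed among themselves in one order for all 4 members, with addback 2 lowest and addback 3 highest. Addback 3 exceeded addback 2 by 1.91-fold for OAS1, 2.32-fold for OAS2, 1.71-fold for OAS3 and 1.92-fold for OASL after background was removed. The same ratio was 1.44 for STAT2, 1.15 for IRF9, 1.3 for IRF7, 1.31 for EIF2AK2, 1.47 for USP18, 1.53 for DDX58 and 1.6 for IFIH1. UBE3D did not share this order, at 3350, 3290 and 2750 CPM in addback 1, 2 and 3. The background share of the library was 2.87%, 12.01% and 11.99%, and its part in the order was not tested.

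The gene lists below were chosen with earlier results of these data known, so their call counts and p-values are descriptive. Of the 6 genes listed around 2-5A, 2 rose and 1 fell in addback against WT (edgeR adjusted p under 0.05). Of all genes tested, 4.37% were called higher and 4.88% lower. The same shares stand beside the edgeR counts of each list below in this comparison. Counts at an unadjusted p, from DESeq2 or from alternative runs have no such share beside them unless it is printed. They are therefore not set against all genes. The median log2 fold of the 6 genes was -0.02, against 0.0 over all genes. ZC3HAV1, an antiviral protein that binds CpG-rich RNA, rose from 101 ± 3.64 to 171 ± 10.8 CPM (SD, n = 3; log2 fold 0.76 ± 0.05, edgeR adjusted p = 4.95e-05). CNP, a phosphodiesterase of 2′,3′-cyclic nucleotides, rose from 165 ± 8.75 to 203 ± 13.8 CPM (0.30 ± 0.06, edgeR adjusted p = 0.0114). ENPP1, an ectoenzyme that also hydrolyses cyclic GMP-AMP, fell from 88.1 ± 10.0 to 66.3 ± 3.63 CPM (-0.41 ± 0.08, edgeR adjusted p = 0.0108). The last 2 calls were lost with scaling over all genes (edgeR adjusted p = 0.383 and 0.0909), and DESeq2 did not call CNP (adjusted p = 0.0883). ABCE1, a ribosome recycling factor, and PDE12 and AKAP7, which can degrade 2-5A, did not pass the test, with log2 folds of 0.03 ± 0.04, -0.06 ± 0.05 and -0.14 ± 0.21.

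Relatives with the OAS type of nucleotidyltransferase fold or working beside one (9 genes) gave 2 higher and 1 lower, with a median log2 fold of -0.02. The sensor cGAS (MB21D1) was at 2.91 ± 1.7 CPM in WT and 2.54 ± 1.48 in addback, with an expected background of 138% and 160% of these levels, so that neither is above background. Its partner STING (TMEM173) was at 28.7 ± 1.88 and 33.9 ± 2.01 (edgeR adjusted p = 1.0 for MB21D1 and 0.156 for TMEM173). STRBP, a spermatid RNA-binding protein, fell by 0.56 on the log2 scale (SE 0.06, edgeR adjusted p = 0.000527). ILF2 and ZFR, RNA-binding proteins of the same fold, each rose by 0.16 ± 0.03 (edgeR adjusted p = 0.0181 and 0.0123), and scaling over all genes (0.768 and 0.677) or DESeq2 (0.365 and 0.237) ended both calls. The ILF2 call was also lost without addback 1, addback 2 or WT 2 (0.0605 to 0.0698) and the ZFR call without addback 1 (0.0508).

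Other proteins that bind or sense double-stranded RNA gave 4 higher and 0 lower of 10 in edgeR (5 higher and 1 lower at an unadjusted p under 0.05, 5 higher and 0 lower in DESeq2), with a median log2 fold of 0.84. The RNA helicase RIG-I (DDX58) went from 22.7 ± 8.77 CPM in WT to 197 ± 38.9 in addback (SD, n = 3), a log2 fold of 3.13 ± 0.25 (edgeR adjusted p = 0.000104). MDA5 (IFIH1) rose from 16.9 ± 9.9 to 110 ± 23.0 CPM, by 2.72 ± 0.35 (edgeR adjusted p = 0.00152). The kinase PKR (EIF2AK2) rose by 1.44 ± 0.09 and the RNA-editing enzyme ADAR by 1.06 ± 0.06 (edgeR adjusted p = 4.14e-05 and 2.74e-05). DHX58, a helicase relative, missed the threshold at 1.37 ± 0.48 (edgeR adjusted p = 0.135), and passed it with the replicate number as a block (1.52 ± 0.41, adjusted p = 0.0426) or without WT 2 (2.02 ± 0.42, adjusted p = 0.0269), and in DESeq2 (1.39 ± 0.45, adjusted p = 0.0184). Expected background made up 69.0% of its WT level. The adaptor MAVS and the partners PRKRA and TARBP2 had log2 folds of -0.13, -0.10 and 0.06 and did not pass.

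Among interferon receptor subunits, their kinases and ISGF3, 3 of 8 rose and none fell in edgeR; at an unadjusted p under 0.05 IFNAR1 and IFNAR2 were lower, and DESeq2 called IFNAR2 lower. The ISGF3 subunit STAT2 went from 70.8 ± 2.62 CPM in WT to 210 ± 36.6 in addback (SD, n = 3; log2 fold 1.57 ± 0.12). IRF9, its DNA-binding partner, went from 18.9 ± 2.68 to 107 ± 6.97 CPM (2.5 ± 0.10, edgeR adjusted p = 3.21e-06). The lambda receptor IFNLR1 rose by 0.29 ± 0.07 (edgeR adjusted p = 0.0382), a call lost without addback 1, 2 or 3 or WT 1 or 3 (0.0508 to 0.132). Scaling over all genes also ended it (edgeR adjusted p = 0.0898), while DESeq2 kept it (adjusted p = 0.00543). Of the alternative runs, 9 lost the IFNLR1 call and 5 kept it. IFNAR1, IL10RB, JAK1 and TYK2 had log2 folds between -0.09 and 0.01 and IFNAR2 one of -0.23 ± 0.07 (edgeR adjusted p = 0.0787).

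Of the 7 transcription factors and brakes of the response, 4 rose and none fell in edgeR (7 higher and 0 lower at an unadjusted p under 0.05, 5 higher and 0 lower in DESeq2), with a median log2 fold of 1.42. IRF7, the factor that widens interferon production, went from 14.5 ± 2.95 to 132 ± 17.1 CPM (3.17 ± 0.17, edgeR adjusted p = 1.67e-05). USP18, which restrains the type I receptor, rose by 2.21 ± 0.13, IRF1 by 1.42 ± 0.13 and IRF2 by 0.57 ± 0.14 (edgeR adjusted p = 0.032). The IRF2 call was lost without addback 1, 2 or 3 or WT 1 or 3 (0.0549 to 0.136). Of all alternative runs, 7 lost it and 7 kept it. SOCS1 and SOCS3, inhibitors of cytokine receptors, had log2 folds of 1.75 ± 0.54 and 0.98 ± 0.33 and did not pass in edgeR (adjusted p = 0.0888 and 0.122), whereas DESeq2 called SOCS3 higher. Expected background was 111% of the SOCS1 level in WT and 39.8% of that of SOCS3.

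**Figure D4:**
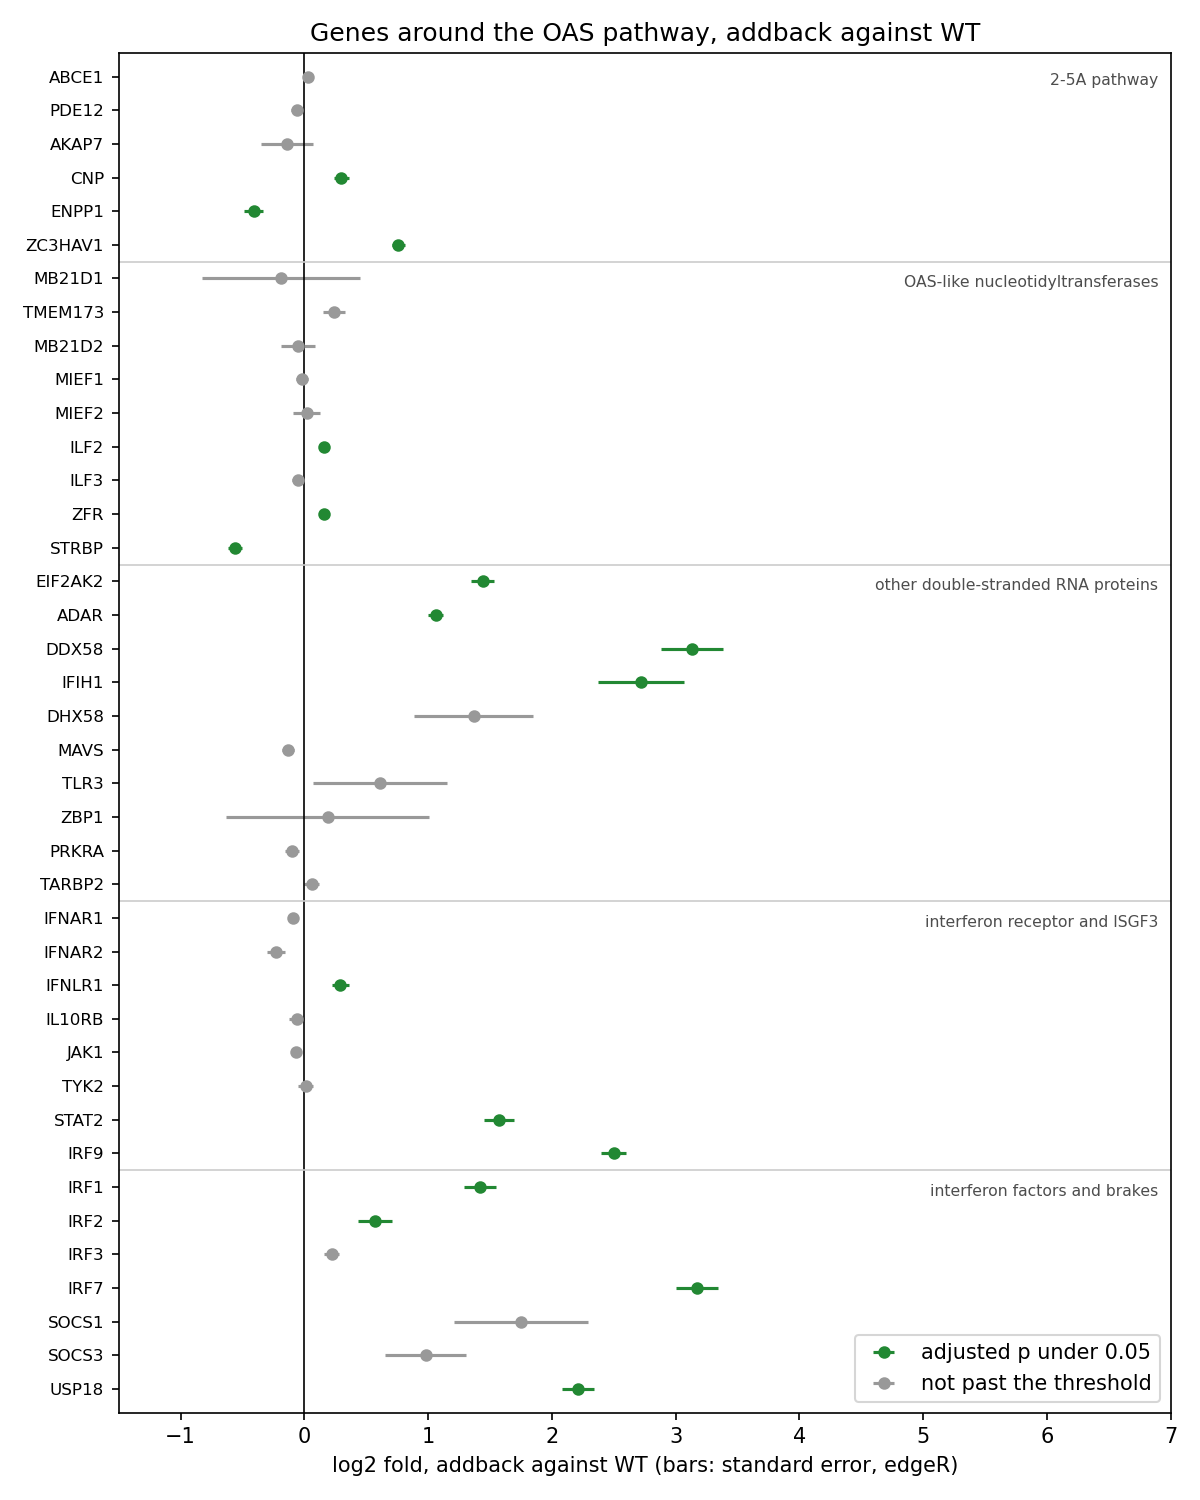
Log2 fold of addback against WT (points) with its edgeR standard error (bars) for the 40 pathway genes outside the ligands, grouped by list; green points have an adjusted p under 0.05. IRF7, DDX58, IFIH1, IRF9 and USP18 lie furthest to the right, and ABCE1 lies at 0.03.

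Interferon genes themselves were low, and their distance from background differed by gene. None of the 10 ligands listed passed the test of addback against WT in edgeR, with 0 at an unadjusted p under 0.05 and 0 called by DESeq2, which gave no adjusted p for IFNB1 and IFNL1. IFNB1, the interferon beta gene, had 36, 74 and 86 counts in addback against an expected background of 12.7, 59.9 and 57.5, had 13, 19 and 34 in WT against 14.3, 47.5 and 55.1, and 0 in each KO library. Its log2 fold against WT was 1.40 ± 0.66 (edgeR adjusted p = 0.353), and 7.51 ± 1.16 (adjusted p = 0.0215) with background subtracted, where WT falls to 0. IFNL1, a type III interferon, had 144, 269 and 247 counts in addback against an expected background of 13.6, 64.1 and 61.5. In WT it had 29, 244 and 59 against 15.3, 50.8 and 58.9, so that all 3 addback libraries and WT 2 lay above background and WT 2 reached the addback range. IFNL2 and IFNL3, near-identical copies whose counts are uncertain, showed the same pattern (112 to 238 counts in addback, 25 to 267 in WT over both genes). All 3 had 0 to 2 counts in KO.

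Over all 50 pathway genes, 15 rose and 2 fell in addback against WT (4.37% and 4.88% of all genes tested). Because the lists were chosen with earlier results known, these counts are no test of the lists against all genes. With scaling over all genes, 11 rose and 1 fell. Against KO, 32 rose and 7 fell in addback (49.2% and 7.63% of all genes tested), and 26 rose and 11 fell with scaling over all genes. KO against WT gave 6 higher and 25 lower (9.44% and 52.5% of all genes), with 14 and 18 under that scaling. With background subtracted, KO against WT gave 7 higher and 12 lower of 45 (10.2% and 25.1% of all genes), and addback against KO 20 and 7 (18.7% and 5.4%). IRF9 and IRF7 rose in addback against KO by 2.67 ± 0.10 and 3.54 ± 0.17 (edgeR adjusted p = 2.4e-06 and 1.6e-05). The comparisons share control libraries and are not independent of each other.

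Genes near the OAS loci were set beside them in addback against WT. The nearest 3 protein-coding genes tested on each side of the cluster (RPL6, PTPN11, RPH3A, DTX1, RASAL1 and CCDC42B) had log2 folds of 0.01 to 0.12, where OAS1, OAS3 and OAS2 had 4.26, 4.38 and 4.65. Near OASL, the genes SPPL3, P2RX7, P2RX4 and CAMKK2 had log2 folds of -0.08 to 0.17. None of these 10 passed the edgeR test, 0 had an unadjusted p under 0.05 and DESeq2 called 0; the lowest adjusted p was 0.349, for CAMKK2. RPH3A, DTX1, RASAL1, CCDC42B and P2RX7 drew 50.1% to 93.9% of their WT counts from the estimated background, so that their folds have standard errors of 0.58 to 0.69. Against KO, the synaptic gene RPH3A was higher in addback by 7.0 ± 0.89 (edgeR adjusted p = 0.00182), with 64.8% of its addback counts at the level of background.

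**Figure D5:**
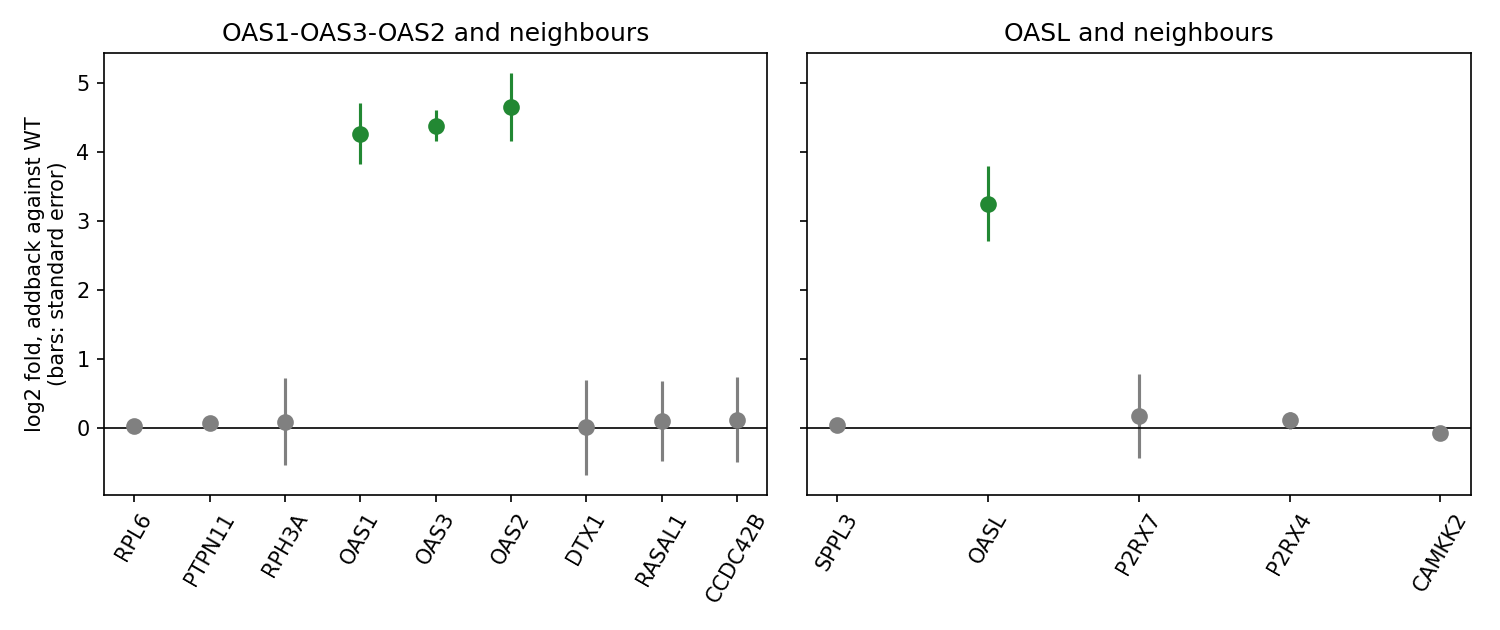
Log2 fold of addback against WT with its standard error for the OAS genes (green) and tested protein-coding genes near them on each side (grey), in chromosomal order. The OAS genes lie between 3.25 and 4.65 and the 10 neighbours between -0.08 and 0.17.

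The OAS3 region recorded downstream of the gene covers chr12:112973250-112978470 (hg38), 5221 bases that begin 1 base after the counted end of OAS3. It fills the gap to OAS2, with its last 76 bases inside the GENCODE OAS2 gene and 2 bases inside the counted OAS2 exons. In the authors' deposited table for addback against KO, the region had a log2 fold of 3.92 ± 0.38 (standard error) at a base mean of 39.9, while the OAS3 gene had 4.57 ± 0.19. That fold ranked 6 of 2396 regions in the authors' deposited table. For KO against WT, the authors' deposited tables gave the region 1.79 ± 0.55 at a base mean of 75.1 and the gene -0.14 ± 0.17. In that deposited table the region ranked 39 of 2541, so that 1.53% of regions were at or above it, and the region fold minus its gene's fold was as large or larger in 69 of the 2312 regions with a fold for their gene. For addback against KO the region's fold was below its gene's, and the region fold minus the gene fold was as high or higher in 2030 of 2177 regions. Its base mean was low in both deposited tables, with 11.1% and 15.7% of regions at or below it. The region folds of KO against WT appear unshrunken and the other deposited folds shrunken, so they are not on 1 scale. No values per library were at hand to set a spread beside them. The region's base mean differed between the deposited tables (39.9 and 75.1), whereas that of the OAS3 gene was 5800 in both. The region's folds can therefore not be joined into 1 series over WT, KO and addback.

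Over the 9 libraries the members followed each other closely on the log2(CPM + 0.5) scale, with Pearson's r of 0.994 to 0.998 among OAS1, OAS2 and OASL and 0.926 to 0.946 between each of them and OAS3. The 5 other genes with the highest mean r to the members were XAF1 (0.983), IFI35 (0.983), EPSTI1 (0.982), DDX58 (0.982) and HERC6 (0.981), and 3 of the 5 were also in the first 5 with scaling over all genes. XAF1, known as an interferon-induced promoter of cell death, was at 20.3 ± 7.7 CPM in addback, 1.91 ± 1.03 in WT and 0.0739 ± 0.0981 in KO (SD, n = 3), and its expected background was 172% of the WT level. IFI35 went from 5.1 ± 1.3 CPM in WT and 1.45 ± 0.0947 in KO to 39.5 ± 8.09 in addback. EPSTI1 stood at 42.1 ± 9.85, 9.26 ± 3.54 and 3.35 ± 0.661 CPM in addback, WT and KO, and HERC6 at 65.3 ± 9.53, 25.4 ± 4.93 and 17.0 ± 1.3. The 9 points fall into 3 groups and share their scaling and background, so these correlations describe the group pattern.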

How the data were processed

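Per the submitters' processing notes, cutadapt 1.8.1, STAR 2.5.2b and DESeq2 were used on hg38. Which program counted reads, and on which annotation, is not given in the sources used here. Counts per gene come from the deposited table. The authors' deposited comparison tables give base means (a signal), log2 folds with standard errors, test scores, p-values and region lengths (other).

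Members and lists were chosen with earlier results of these data known. R 4.3.3 and edgeR 4.0.16 were used for 1 fit of all 9 libraries (21994 genes tested after filterByExpr, robust quasi-likelihood, group only, Benjamini-Hochberg, called under 0.05), with TMM factors from 7718 low-background genes (estimated background at most 10% of mean CPM). Background is a library's median count per kb of coding sequence over 559 tissue-restricted genes times a gene's coding length. Means are ± SD of 3 libraries. Counting intervals are exact binomial, cover counting error only and rest on reads without molecular identifiers. Region starts were made 1-based. Named genes were the members, 50 list genes, the nearest 3 protein-coding genes on each side of the loci (10 given) and the 5 most correlated genes; some listed or neighbouring genes are not reported here, and counts leave them out. The fit and test were also run on simulated data, for addback against KO only. That simulation gave every gene the same spread and no background differing between groups, so it cannot check the handling of background.

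Same-numbered addback and WT libraries deviated together (r over all genes tested 0.89, 0.60 and 0.74), which was taken as pairing. Over low-background genes alone r was 0.57, 0.29 and 0.63, and the part of background reads in it was not tested. Calls of addback against WT given above ignore this pairing unless the block is named. In comparisons with KO r over all genes tested was -0.05 to 0.02. Replicates differed beyond sampling noise (chi-square over its degrees of freedom 1.95 to 42.73). Scaling, filter, block, background subtraction, DESeq2 1.42.0 and left-out libraries were the alternatives. Scaling over all genes moved the median log2 fold by 0.35, -0.31 and 0.04 (KO against WT, addback against KO, addback against WT), so small folds in comparisons with KO are relative to the scaling.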

Additional observations from a re-analysis of the deposited data

How the results depend on the processing

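With background subtracted, 19 pathway genes were called in KO against WT instead of 31, and among low-background genes alone 15, where fewer genes were tested; in addback against KO low-background genes alone gave 20 instead of 39. With the replicate block, 34, 42 and 22 genes were called, against 31, 39 and 17 without it. The order is KO against WT first, then addback against KO, then against WT. For addback against WT, the block moved the calls from 15 higher and 2 lower to 19 higher and 3 lower. DHX58 was among the added calls. The others are not given by gene here, and genes stated above not to pass may be among them. Leaving out 1 library gave 28 to 33, 34 to 38 and 13 to 18 calls. Scaling factors from genes under 1% background, chosen after seeing the data, gave 37, 39 and 15. Apart from the background-subtracted counts, no share over all genes is given for these alternative runs. OAS2 in KO against WT turned from -5.24 to 4.93 (SE 3.47) with background subtracted, which sets WT at or near 0, and its fold against WT then rose to 14.85, no measure of size. All member folds of addback against KO and against WT stayed positive in every alternative run. Depth limits OAS1, OAS2 and OASL in KO to 5, 12 and 15 counts in all.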
